A study of Homo sapiens with 10 samples.

Results

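The genes described here encode transcription factors and regulators reported to bind mutant p53: the p53 relatives TP63 and TP73, the ETS factors ETS1 and ETS2, the 3 NF-Y subunits NFYA, NFYB and NFYC, the zinc finger factor SP1, and PML, the scaffold of PML nuclear bodies. The members were every probe set annotated with 1 of these symbols alone, on all 10 arrays. They came to 39 probe sets of 8 of the 9 listed genes, among 54675 probe sets in all, of which 41097 carried a single symbol and covered 19775 genes. TP63 and the gene targeted by the p53 siRNA were not analysed here, so knockdown was not checked by its target.

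SKBR3 is a breast carcinoma line with amplified ERBB2 and a mutant p53. It was grown in charcoal-stripped serum and then transfected with siRNA. The p53i groups received siRNA against p53, and the LacZi groups received siRNA against LacZ, a bacterial gene that served as the negative control. Within each siRNA, 2 arrays came from untreated cells and 1 array each from cells given 100 nM calcitriol (D3, the active hormone made from vitamin D3) for 8, 20 and 50 h. All 10 arrays thus came from 1 cell line with the same mutant p53 background. D3 was added 48 h after transfection according to the series text and 24 h according to the sample text, and both are given because the sources used here do not settle it. The labels number the untreated duplicates as biological replicates. Nothing states that the D3 arrays came from separate cultures, so the p-values reflect the spread among these samples, which may be technical. The labels give no untreated arrays for the individual D3 times, so the effects of D3 and of longer culture cannot be told apart.

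Wild-type p53 binds DNA itself, whereas many tumour mutants bind DNA poorly and reach promoters through other factors. Mutant p53 has been reported to inhibit p63 and p73, to join NF-Y at CCAAT boxes of cell cycle genes, to bind ETS2 at ETS sites, and to act with SP1 at GC boxes. PML is an interferon-inducible protein that gathers SP100, DAXX and other proteins into nuclear bodies. The comparisons ask whether the mRNAs of these partners themselves differed after p53 siRNA or after D3, whose receptor VDR is itself a reported partner.

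The files held MAS5 signals, which are linear intensities that had been scaled to the same trimmed mean of 200 on every array, with medians of 35.7 to 44.3. A signal above 35.4 put a probe set in the upper 50% by mean log2 signal, and differences are on the log2(signal + 16) scale, where 1 is a doubling. At this filter 25 member probe sets of 7 genes were tested, alongside 22031 probe sets and 12022 genes in all. A gene was called where limma's adjusted p over all genes was below 0.05. The untreated duplicates differed at least 2-fold for 430 of 12022 genes (3.58%) in p53i cells and for 318 genes (2.65%) in LacZi cells. Of the SKBR3 markers, ERBB2, GRB7, KRT8, KRT18, KRT19 and EPCAM had signals of at least 1841 on every array, whereas CDH3 stayed at 2.80 to 54.0. The ratio of 3' to 5' ACTB control probe sets, which reflects how intact and well labelled the RNA was, averaged 6.22 ± 1.77 in p53i arrays and 4.46 ± 0.523 in LacZi arrays (SD, n = 5 each; exact permutation test, two-sided p = 0.0714).

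After D3, ETS2 was the member that changed most. Its mRNA rose 2.13-fold at the mean of the 3 times and SP1 fell by 0.31 on the log2 scale in the gene-level fit, while NFYA, NFYB, NFYC, PML and ETS1 did not pass the test. The other SP1 probe set above the filter differed by 0.18 the other way, 224754_at missed the threshold among all probe sets (limma, adjusted p = 0.0614), and the gene-level SP1 call was lost in 16 of 23 alternatives. These 2 of 7 member genes compare with 4.4% of all genes called in either direction. After p53 siRNA none of the 7 member genes was called (limma, adjusted p 0.0719 to 0.878), against 6.5% of all genes. At an unadjusted p under 0.05, 2 of the 7, ETS1 and NFYB, passed, and 22.9% of all genes did. ETS1 averaged 35.7 in p53i cells, close to the filter signal of 35.4, and passed the filter mainly through its LacZi arrays. When every probe set was tested on its own, 4 of the 25 were called, 2 of NFYB and 2 of PML, all higher in p53i cells, against 3.82% of all probe sets called and 1.96% called higher. All 4 calls were lost once the ACTB ratio entered the model (limma, adjusted p 0.0855 to 0.229), with the direction of each difference kept. The gene-level NFYB difference was called in that fit. The part of RNA quality in these differences was not tested. In these bulk samples, fewer cells of a type and less RNA per cell cannot be told apart.

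**Figure D1:**
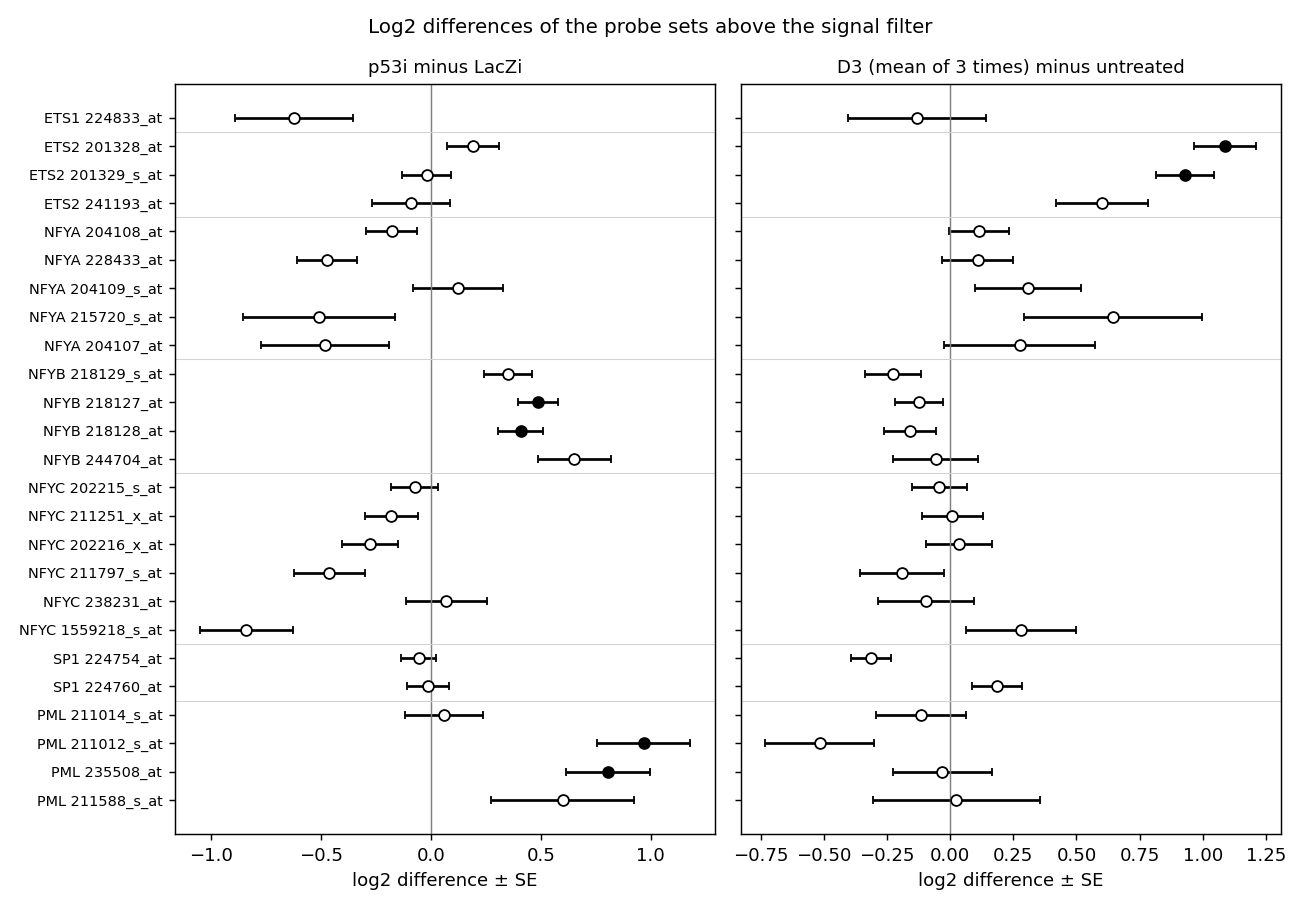
Log2 differences (horizontal axis, ± SE) of the 25 member probe sets above the signal filter, with p53i minus LacZi on the left and D3 (mean of 3 times) minus untreated on the right. Filled points passed limma's adjusted p of 0.05 over all probe sets: 4 for siRNA, all higher in p53i cells, and 2 for D3, both of ETS2.

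Promoter windows of the 2 genes called after D3 are printed to show which letters lie at their start sites. The sequences are RefSeq's, build GRCh38.p14, each of 300 bases with 250 before and 50 after an annotated start. RefSeq windows were at hand for 6 of the 9 listed genes, and ETS1, NFYB and PML had none among them. Searched on both strands were the VDR half-sites AGGTCA and GGTTCA and the direct repeat of AGGTCA with a spacer of 3 bases. Also searched were the NF-Y box CCAAT, the GC box GGGCGG bound by SP1, and the ETS site CCGGAA. Capitals mark GGTTCA in the ETS2 window and CCAAT, here on the opposite strand and so printed as its reverse complement ATTGG, in the SP1 window.
ETS2, chr21:38804933-38805232, plus strand: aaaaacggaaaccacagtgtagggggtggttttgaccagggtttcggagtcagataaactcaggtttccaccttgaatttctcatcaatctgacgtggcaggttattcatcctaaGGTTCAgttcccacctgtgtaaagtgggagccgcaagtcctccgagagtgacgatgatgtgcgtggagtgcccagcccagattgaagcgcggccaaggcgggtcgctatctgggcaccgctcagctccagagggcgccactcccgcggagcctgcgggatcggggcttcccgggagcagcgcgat
SP1, chr12:53379926-53380225, plus strand: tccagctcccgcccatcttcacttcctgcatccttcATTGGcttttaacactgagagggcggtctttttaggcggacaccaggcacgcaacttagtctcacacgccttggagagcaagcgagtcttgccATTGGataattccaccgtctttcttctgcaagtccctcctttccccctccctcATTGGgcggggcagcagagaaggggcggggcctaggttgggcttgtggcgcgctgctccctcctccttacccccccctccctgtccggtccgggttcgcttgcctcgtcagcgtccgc
The ETS2 window held 1 GGTTCA, starting 135 bases before the annotated start, a motif found in 8.62% of 35114 promoter windows of this length. A second ETS2 window, chr21:38805679-38805978, held none of the motifs searched. AGGTCA, which 13.8% of windows held, was in neither ETS2 window, and the direct repeat was found in 0.0057% of windows. The SP1 window held 3 CCAAT matches and 4 GC boxes, and 1 CCAAT match shared bases with a GC box. CCAAT was present in 34.6% of all windows and GGGCGG in 45% of them. CCGGAA, which 17.2% of all windows held, was in none of the ETS2 and SP1 windows. A second SP1 window, chr12:53380394-53380693, held 10 GC boxes and no CCAAT. These matches are letters in a window and not measured binding.

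ETS2 encodes an ETS-domain activator that acts downstream of ERK signalling, and ETS2 is also one of the factors through which mutant p53 has been reported to reach ETS sites. Its 201328_at signal was 408 and 436 in the untreated duplicates and 749.5, 701 and 784 after 8, 20 and 50 h of D3 in p53i cells. In LacZi cells the same probe set read 306 and 264 in the untreated duplicates and 793, 720.2 and 791 after 8, 20 and 50 h of D3. All 6 D3 arrays lay above all 4 untreated arrays, with D3 arrays averaging 756 ± 39.2 (SD, n = 6) and untreated arrays 354 ± 81.7 (SD, n = 4). The log2 difference was 1.09 ± 0.12 (SE; limma, adjusted p = 0.000621), the 33rd largest rise among 12022 genes.

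A second ETS2 probe set was also higher after D3. The 201329_s_at signal was 277 and 197 in the untreated duplicates and 455, 457 and 450.0 after 8, 20 and 50 h of D3 in p53i cells. LacZi cells had 216 and 253 in the untreated duplicates and 482, 439 and 474 after 8, 20 and 50 h of D3. Here too no D3 array overlapped an untreated array, which 1.81% of all probe sets showed in this direction. The difference was 0.93 ± 0.11 (limma over probe sets, adjusted p = 0.00226). The correlation of both probe sets over the 10 arrays was r = 0.90, as a description. The dimmer 241193_at averaged 106 ± 21.8 in D3 arrays and 64.5 ± 19.6 in untreated arrays, with overlap and a difference of 0.60 ± 0.18 that did not pass (adjusted p = 0.109). Of the 25 member probe sets, the 2 bright ones of ETS2 were called for D3, where 2.49% of all probe sets were.

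The ETS2 rise was present at the earliest time. The gene-level log2 differences were 1.12 ± 0.16 at 8 h, 1.00 ± 0.16 at 20 h and 1.15 ± 0.16 at 50 h (limma, adjusted p = 0.0148, 0.0183 and 0.0029). ETS2 was the member gene called at each time, when 0.175%, 0.591% and 4.31% of all genes were called at 8, 20 and 50 h. Between 50 and 8 h the difference was 0.03 ± 0.19 (adjusted p = 0.981), and 0.133% of genes were called for that step. Each time has 1 array per siRNA, and that array is assumed to vary as the rest do. The calls at 8 and 20 h were each lost without LacZi untreated replicate 1 (0 members called), without either array of that time and with median centring. The call at 50 h was lost without the LacZi 50 h array.

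**Figure D2:**
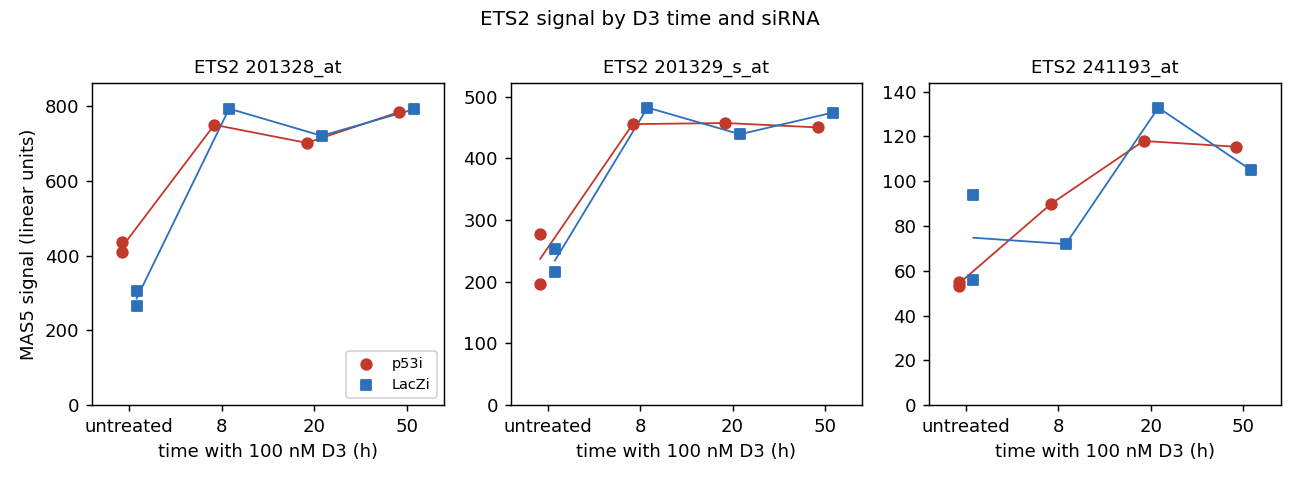
MAS5 signal (linear units, vertical axis) of the 3 ETS2 probe sets against time with D3, with p53i arrays as red circles, LacZi arrays as blue squares and lines through the mean at each time. On 201328_at and 201329_s_at every D3 array stands above every untreated array.

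ETS2 rose with D3 under both siRNAs on 201328_at. The log2 difference was 0.80 ± 0.13 in p53i cells (limma, adjusted p = 0.0298) and 1.38 ± 0.13 in LacZi cells (adjusted p = 0.000438). Among all genes, 0.541% were called in p53i cells and 0.391% in LacZi cells. The interaction, the D3 difference in p53i cells minus that in LacZi cells, was -0.59 ± 0.18 (limma, adjusted p = 0.893) and did not pass. No gene passed for the interaction, and 645 of 12022 genes (5.37%) had an unadjusted p under 0.05. In untreated cells ETS2 201328_at was 0.54 ± 0.17 higher in p53i than in LacZi cells and did not pass (limma, adjusted p = 0.357). In that comparison 0.00832% of all genes were called. On 201329_s_at the interaction was -0.03 ± 0.24 (adjusted p = 0.992), on 241193_at it was 0.42 ± 0.36, and the untreated siRNA differences were 0.00 ± 0.22 and -0.34 ± 0.30. The 3 ETS2 probe sets thus had siRNA differences of different sign or size in untreated cells, and none passed. The D3 call in p53i cells was lost without any 1 of the 6 D3 arrays (0 member genes called), and the call in LacZi cells was kept in every fit that left out 1 array.

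The genes whose log2 signals followed ETS2 most closely over the 10 arrays were ITPR1, an endoplasmic reticulum calcium release channel (r = 0.98), POLI, a translesion DNA polymerase (r = 0.97), and KAZN, which encodes the junction-associated protein kazrin (r = 0.97). These correlations span D3 and untreated arrays alike and are descriptions. ITPR1 averaged 341 ± 34.7 in D3 arrays and 112 ± 54.8 in untreated arrays, a log2 difference of 1.58. KAZN averaged 5342 ± 316 in D3 arrays and 2617 ± 398 in untreated arrays (difference 1.04). POLI differed by 0.50. All were picked for following ETS2, itself called for D3, over these same arrays, so their D3 differences are descriptions too.

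ETS1, the close relative of ETS2, was dim. Its brightest probe set, 224833_at, read 39.8 and 55.0 in the untreated duplicates and 21.0, 42.2 and 20.3 after 8, 20 and 50 h of D3 in p53i cells. The LacZi values were 43.8 and 61.0 in the untreated duplicates and 65.8, 47.7 and 95.3 after 8, 20 and 50 h of D3. Means were 35.7 ± 14.9 in p53i cells, close to the filter signal of 35.4, and 62.7 ± 20.4 in LacZi cells. ETS1 thus passed the filter mainly through its LacZi arrays. All 4 matched comparisons had the lower signal in p53i cells, the groups overlapped, and the gene-level difference was -0.62 ± 0.27 (limma, adjusted p = 0.193). How many of all probe sets had all 4 matched comparisons in 1 direction was not counted, here or for the members below. With D3 ETS1 differed by -0.13 ± 0.28 (adjusted p = 0.852). The other ETS1 probe sets lay below the filter, at 0.579 to 58.3. Of these, 214447_at ran the other way, averaging 40.6 ± 21.1 in p53i cells and 26.6 ± 10.5 in LacZi cells. In a fit without the filter the siRNA difference was 0.34 ± 0.30 on 214447_at and -0.24 ± 0.20 on 1555355_a_at, neither called (limma, adjusted p = 0.68 and 0.662).

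SP1 encodes a widely expressed activator that binds GC boxes. The probe set with the highest mean, 224754_at, gave 1468 and 1763 in the untreated duplicates and 1284, 1295 and 1348 after 8, 20 and 50 h of D3 in p53i cells. LacZi cells gave 1727 and 1672 in the untreated duplicates and 1396, 1368 and 1277 after 8, 20 and 50 h of D3. Every D3 array lay below every untreated array, a pattern of 1.99% of all probe sets, with 1328 ± 49.5 in D3 arrays (SD, n = 6) and 1657 ± 132 in untreated arrays (SD, n = 4). The gene-level log2 difference was -0.31 ± 0.08 (limma, adjusted p = 0.043), and values at 8, 20 and 50 h were -0.30, -0.31 and -0.33 (adjusted p = 0.528, 0.206 and 0.0999).

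The other SP1 probe set above the filter ran the other way. Its 224760_at signal was 588 and 574 in the untreated duplicates and 705, 663 and 626 after 8, 20 and 50 h of D3 in p53i cells. In LacZi cells it was 505 and 683 in the untreated duplicates and 684, 657 and 666 after 8, 20 and 50 h of D3. D3 arrays averaged 667 ± 26.5 and untreated arrays 588 ± 73.4, the groups overlapped, and the difference was 0.18 ± 0.10 (adjusted p = 0.373). Over the 10 arrays the 2 probe sets correlated at r = -0.66. Tested among all probe sets, 224754_at also missed the threshold (adjusted p = 0.0614), and with the mean of all SP1 probe sets the difference was 0.00 (adjusted p = 0.997). The gene-level SP1 call was lost in 16 of 23 alternatives, including 9 of the 10 fits that left out 1 array.

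**Figure D3:**
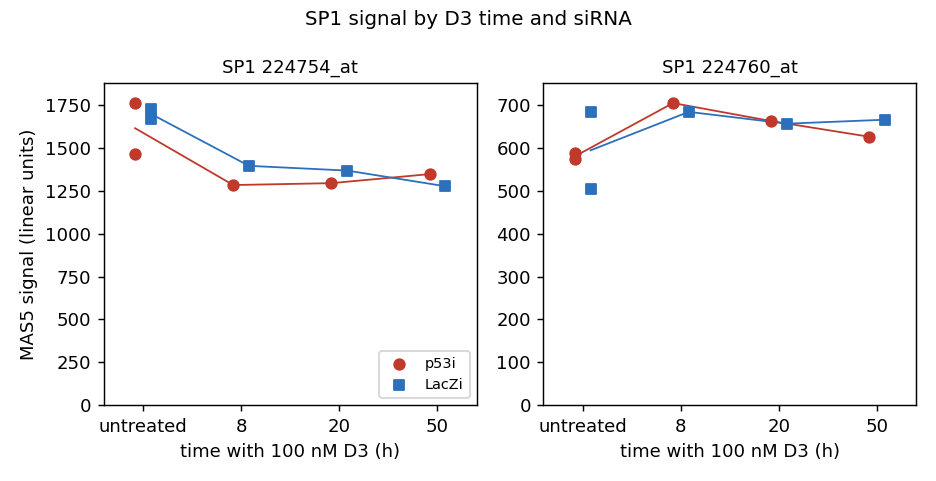
MAS5 signal (linear units, vertical axis) of the 2 SP1 probe sets above the filter against time with D3, with p53i arrays as red circles, LacZi arrays as blue squares and lines through the mean at each time. On 224754_at all D3 arrays lie below all untreated arrays, and on 224760_at the D3 and untreated arrays overlap.

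Of p53 siRNA, SP1 showed -0.06 ± 0.08 on 224754_at and -0.01 ± 0.10 on 224760_at, neither called. Another SP1 probe set, 1553685_s_at, lay below the filter at 4.62 to 35.9 in p53i cells and 38.6 to 59.1 in LacZi cells, without overlap. Of the probe sets above the filter 3.04% had this pattern, and its share among dimmer ones was not counted. In a fit without the filter its difference was -0.86 ± 0.26 (adjusted p = 0.155). The last SP1 probe set, 214732_at, read 2.27 to 63.7 with overlap. Its difference in that fit was -0.92 ± 0.38 (adjusted p = 0.305). The genes closest to SP1 over the 10 arrays were COX6C, a cytochrome c oxidase subunit (r = 0.96), PMVK, a kinase of the mevalonate pathway (r = 0.94), and TXNL4A, a spliceosome component (r = 0.92). With D3, PMVK, COX6C and TXNL4A differed by -0.47, -0.18 and -0.24. They were picked for following SP1 over these same arrays, so these D3 differences are descriptions.

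NF-Y is a trimer of NFYA, NFYB and NFYC that binds CCAAT boxes, in which NFYB and NFYC form a histone-fold pair and NFYA makes the sequence contact. NFYB was the subunit with higher signals in p53i cells. On 218127_at the p53i values were 810.4 and 757 in the untreated duplicates and 605, 687 and 749 after 8, 20 and 50 h of D3. LacZi values were 572 and 467 in the untreated duplicates and 459.9, 517 and 529.9 after 8, 20 and 50 h of D3. No array of one siRNA overlapped the other, a pattern of p53i above LacZi that 2.45% of all probe sets showed, and the means were 722 ± 78.6 in p53i cells and 509 ± 46.6 in LacZi cells (SD, n = 5 each). The log2 difference was 0.49 ± 0.09 (limma, adjusted p = 0.0171).

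The next NFYB probe set, 218128_at, was alike. It read 723 and 619 in the untreated duplicates and 711, 705 and 603 after 8, 20 and 50 h of D3 in p53i cells. In LacZi cells it read 598 and 553 in the untreated duplicates and 443, 470.1 and 458 after 8, 20 and 50 h of D3. The groups again did not overlap and the difference was 0.41 ± 0.10 (adjusted p = 0.0464). The dimmer 244704_at averaged 223 ± 27.4 in p53i cells and 138 ± 31.2 in LacZi cells, also without overlap, and its difference of 0.65 ± 0.17 just missed the threshold (adjusted p = 0.0507). The brightest, 218129_s_at, stood for NFYB at the gene level, averaged 741 ± 92 in p53i cells and 580 ± 95.5 in LacZi cells with overlap, and differed by 0.35 ± 0.11 (adjusted p = 0.0719 over genes). All 4 probe sets were higher in p53i cells in 4 of 4 matched comparisons and correlated with each other at r = 0.63 to 0.87. They read 1 gene on the same arrays, so their agreement is not independent, and the share of all probe sets with this pattern was not counted.

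These 2 NFYB probe sets and 2 of PML were the 4 of 25 called for siRNA, when 3.82% of all probe sets were called and 1.96% were called higher. The ACTB ratio averaged 6.22 in p53i arrays and 4.46 in LacZi arrays, and with it as a covariate the called NFYB differences were 0.48 and 0.54 and were no longer called (adjusted p = 0.114 and 0.0855). The gene-level NFYB difference with that covariate was 0.54 and was called (adjusted p = 0.0429). Leaving out 1 array at a time ended the call of 218127_at in 4 of 10 fits and that of 218128_at in 9 of 10, with the direction kept. All 6 tested markers of SKBR3 cells were also higher in p53i cells, with a median difference of 0.26, and GRB7 (0.38, adjusted p = 0.0324) and KRT8 (0.42, adjusted p = 0.00399) were called, against 3.39% of all genes called higher. Their part in the NFYB and PML differences was not tested. After D3 no NFYB probe set was called, with differences of -0.23 to -0.06.

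NFYA, the DNA-contacting subunit, went the other way without passing. NFYA 228433_at read 106 and 112 in the untreated duplicates and 134, 97.0 and 91.9 after 8, 20 and 50 h of D3 in p53i cells. The LacZi values were 127 and 151 in the untreated duplicates and 183, 179 and 142 after 8, 20 and 50 h of D3. None of the 4 matched comparisons was higher in p53i cells, the groups overlapped, and the difference was -0.47 ± 0.14 (limma over probe sets, adjusted p = 0.0763). The brightest NFYA probe set, 204108_at, differed by -0.18 ± 0.12 (adjusted p = 0.422 over probe sets). Across the 5 NFYA probe sets above the filter the siRNA difference ranged from -0.51 to 0.12.

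NFYC, the histone-fold partner of NFYB, had 6 probe sets above the filter, with siRNA differences of -0.84 to 0.07 and none called. The brightest, 202215_s_at, averaged 546 ± 78.1 in p53i cells and 573 ± 52.2 in LacZi cells, a difference of -0.07 ± 0.11 (adjusted p = 0.744). The dimmest, 1559218_s_at, read 21.1 and 22.2 in the untreated duplicates and 60.9, 64.9 and 10.3 after 8, 20 and 50 h of D3 in p53i cells. LacZi cells read 83.4 and 54.3 in the untreated duplicates and 82.0, 109 and 33.5 after 8, 20 and 50 h of D3. The p53i array was the lower in all 4 matched comparisons, and the groups overlapped. Means were 35.9 ± 25.2 in p53i cells and 72.5 ± 29.2 in LacZi cells. The p53i mean lay close to the filter signal of 35.4, so this probe set passed the filter mainly through its LacZi arrays. Its difference of -0.84 ± 0.21 was not called (adjusted p = 0.05 after rounding) and is a description. Probe sets 211251_x_at and 202216_x_at moved together (r = 0.94 over the 10 arrays) and differed by -0.18 and -0.28. With D3 the NFYA and NFYC probe sets ranged from -0.19 to 0.65, and none was called. The siRNA differences thus had different signs for NFYB and for most probe sets of NFYA and NFYC, and the difference between subunits was not tested.

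PML also split by probe set. PML 211012_s_at read 142 and 177 in the untreated duplicates and 89.0, 90.7 and 74.4 after 8, 20 and 50 h of D3 in p53i cells. In LacZi cells it was 36.6 and 78.6 in the untreated duplicates and 40.2, 42.4 and 49.9 after 8, 20 and 50 h of D3. Only the highest LacZi array reached into the p53i values, all 4 matched comparisons were higher in p53i cells, and the means were 115 ± 43.4 in p53i cells and 49.5 ± 16.9 in LacZi cells (SD, n = 5 each). The log2 difference was 0.97 ± 0.21 (limma over probe sets, adjusted p = 0.0306).

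The probe set 235508_at behaved alike. Its signal was 87.1 and 73.8 in the untreated duplicates and 64.1, 111 and 123 after 8, 20 and 50 h of D3 in p53i cells. LacZi arrays had 61.2 and 43.6 in the untreated duplicates and 19.1, 40.7 and 71.0 after 8, 20 and 50 h of D3. The groups overlapped, 4 of 4 matched comparisons were higher in p53i cells, and the difference was 0.81 ± 0.19 (adjusted p = 0.0416). The PML probe set with the highest mean, 211014_s_at, averaged 116 ± 27.9 in p53i cells and 109 ± 20.9 in LacZi cells, a difference of 0.06 ± 0.18 (adjusted p = 0.883), and it showed no correlation with 211012_s_at (r = 0.00). The remaining one above the filter, 211588_s_at, differed by 0.60 ± 0.32 (adjusted p = 0.322). Another 6 PML probe sets lay below the filter. In a fit without the filter their siRNA differences were -0.28 to 0.60, with none called (limma, adjusted p 0.222 to 0.873). On 206503_x_at, at 2.01 to 7.40, every p53i array lay above every LacZi array. The share of dim probe sets with this pattern was not counted. PML makes many spliced forms, and which forms each probe set reads was not analysed here.

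Once the ACTB ratio entered the model, the differences of 211012_s_at and 235508_at were 0.84 and 0.95 and were not called (adjusted p = 0.229 and 0.138). Leaving out 1 array ended the call of 211012_s_at in 8 of 10 fits and that of 235508_at in 9 of 10, with the direction kept. After D3, PML 211012_s_at differed by -0.52 ± 0.22 (adjusted p = 0.249), and the other PML probe sets above the filter by -0.12 to 0.02.

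**Figure D4:**
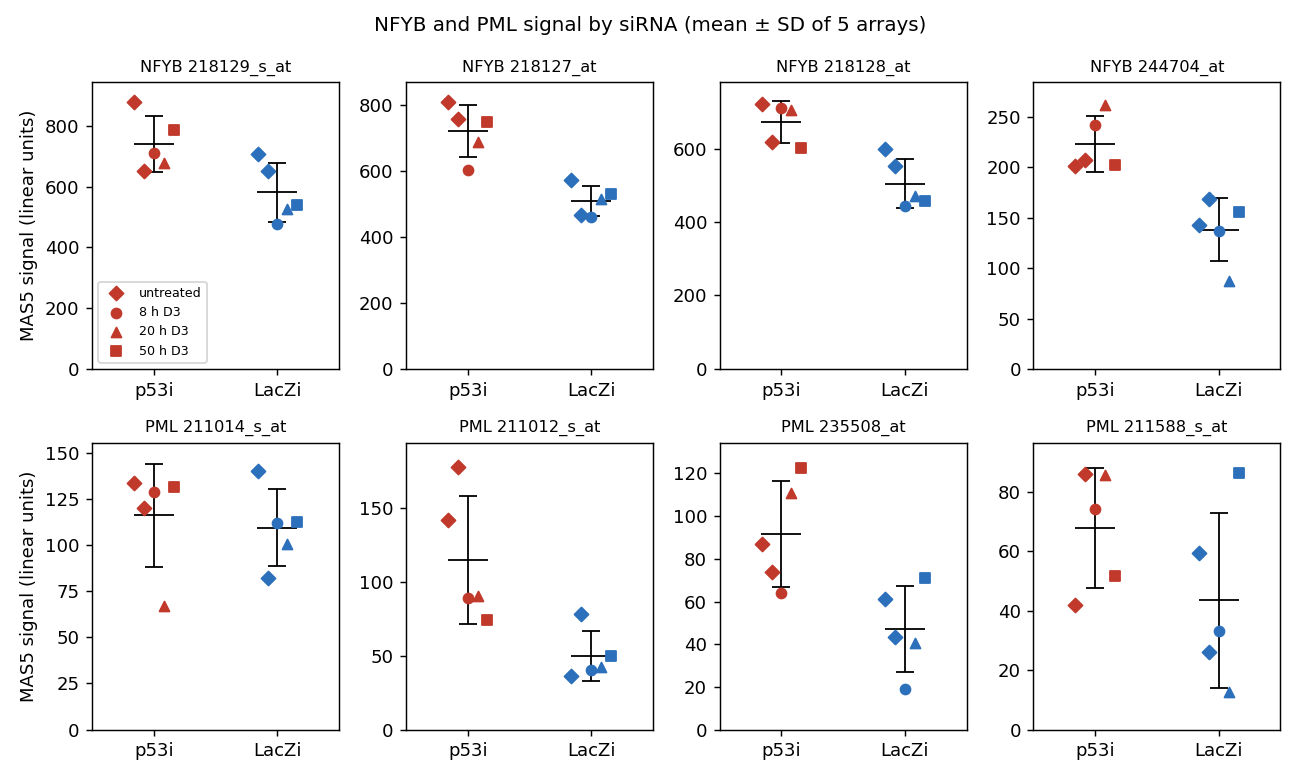
MAS5 signal (linear units, vertical axis) of the 4 NFYB and 4 PML probe sets above the filter by siRNA, with marker shapes for untreated cells and each D3 time and the mean ± SD of 5 arrays. On NFYB 218127_at, 218128_at and 244704_at no p53i array overlaps a LacZi array, and PML 211014_s_at shows no such gap.

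TP73, the p53 relative with values here, was dim. Its 3 probe sets read 1.77 to 49.6 over all arrays and all lay below the filter. The highest, 232546_at, had 12.6 and 21.2 in the untreated duplicates and 48.1, 25.5 and 49.6 after 8, 20 and 50 h of D3 in p53i cells. In LacZi cells it had 17.2 and 34.8 in the untreated duplicates and 9.16, 29.0 and 25.2 after 8, 20 and 50 h of D3. The groups overlapped, and in a fit without the filter no TP73 probe set was called for siRNA (differences 0.08 to 0.25, adjusted p 0.748 to 0.861) or D3.

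Reported targets of the factors were counted on the same fits, beside 3.39% of all genes called higher and 3.11% called lower for siRNA, and 1.99% higher and 2.41% lower for D3. Of 12 NF-Y cell cycle targets, 2 fell with p53 siRNA: CDK1, the mitotic kinase, by 0.38 and MAD2L1, a spindle checkpoint protein, by 0.48 (limma, adjusted p = 0.0317 and 0.0354). With D3, 5 of the 12 fell and none rose, and the median difference was -0.38 against 0.00 over all genes. They were MAD2L1 (by 0.67), CCNA2 (by 0.54), CCNB2 (by 0.48), CCNB1 (by 0.45) and CDK1 (by 0.39). Taken by time, 0 of the 12 fell at 8 h, 0 at 20 h and 5 at 50 h, with medians of -0.18, -0.44 and -0.59. Of all genes, 0.0333%, 0.233% and 2.48% were called lower at those times. For 50 h minus 8 h 0 were called, with a median of -0.36. Longer D3 and longer culture cannot be told apart here. The cyclins CCNA2, CCNB1 and CCNB2 partner the kinases of S phase and mitosis. MAD2L1 averaged 579 ± 135 in D3 arrays and 934 ± 261 in untreated arrays. In the main fit no NF-Y subunit was itself called for D3, and NFYB was called lower in 1 of 23 alternatives.

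Of 8 tested targets reported for ETS factors with mutant p53, including KMT2A, PLAU and MET, none was called for siRNA or for D3, and the D3 median was -0.10. In the wider ETS family, 16 other genes were tested, with none called for siRNA and 1, the epithelial factor EHF, falling with D3 by 0.83 (limma, adjusted p = 0.00996). EHF averaged 709 ± 134 in D3 arrays and 1289 ± 341 in untreated arrays, so EHF and ETS2 changed in opposite directions. Among 10 SP and KLF genes, SP3, which binds the same GC boxes as SP1, fell with D3 by 0.41 (adjusted p = 0.035), and KLF6 rose with p53 siRNA by 0.33 (adjusted p = 0.0328).

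Of 9 tested components of PML nuclear bodies, 2 rose with p53 siRNA and none with D3. SP110 averaged 634 ± 192 in p53i cells and 258 ± 58 in LacZi cells, a rise of 1.23 (limma, adjusted p = 0.00392). SP100, a core nuclear body protein, averaged 224 ± 61.5 in p53i cells and 122 ± 18.8 in LacZi cells, a rise of 0.78 (adjusted p = 0.022). PML, SP100 and SP110 are all known as interferon-inducible. Of 7 interferon-inducible TRIM genes, TRIM25 alone was called, rising by 0.37 (adjusted p = 0.0264), and the list median was 0.14 against 0.00 over all genes.

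Among 13 tested genes tied to p63, CCNG2, an atypical cyclin reported to be repressed by mutant p53, rose with p53 siRNA by 0.52 (adjusted p = 0.0208). With D3, RAB11FIP1, an endosome recycling protein, rose by 0.66 (adjusted p = 0.0182), and KRT5, a basal keratin, was called higher (adjusted p = 0.0133). KRT5 averaged 80.1 ± 60.8 in D3 arrays and 16 ± 22.6 in untreated arrays, where the mean lay below the filter signal of 35.4, so it passed the filter only through the D3 arrays and no fold is given. The other basal keratin, KRT14, stayed at 2.00 to 25.7. The summed signal of 7 markers of other cell types was 441 to 739 in D3 arrays and 416 to 537 in untreated arrays, and 1 of the 3 that were tested, KRT5, was called. The fibroblast marker COL1A1 read 271 to 450 and the endothelial marker PECAM1 82.0 to 142, both above the filter. PTPRC, the leukocyte marker, stayed at 0.571 to 20.9, COL3A1 at 5.87 to 27.7 and ALB at 2.85 to 33.6. The part of other cells in these values was not tested. Of 17 other reported partners of mutant p53, none was called for siRNA, while SREBF1, a lipogenic factor, rose by 0.49 and TOP1, a topoisomerase, by 0.47 with D3. VDR, the D3 receptor, differed by -0.22 with p53 siRNA and by -0.32 with D3, and neither passed (adjusted p = 0.186 and 0.0874).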

How the data were processed

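RNA of 10 SKBR3 samples was hybridised to 1-colour Affymetrix arrays. Per the submitters' processing notes the deposited intensity values are MAS5 signals, with the version not given in the sources used here. Each array's deposited intensities already had the same trimmed mean, so they were not normalized again. Groups came from each sample's labels. Probe sets were named through GEO's platform annotation: 41097 carried 1 symbol, 1801 several and 11777 none here, and 54 gene IDs had no match in RefSeq's gene table.

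Signals were converted to log2(signal + 16), and for each gene the brightest probe set on average was taken. Tests used R 4.3.3 and limma 3.58.1 (lmFit, eBayes with an intensity trend, two-sided, Benjamini-Hochberg over all genes or all probe sets, threshold 0.05). The additive fit (siRNA plus D3 time) left 5 residual degrees of freedom, the fit with the interaction 4, and the 8 group means behind the untreated comparison 2. The code was tested on simulated data. Named were all members, the 3 genes nearest each called member, and up to 5 called genes of each list. The members, lists and tests were chosen with earlier results of these data known. Alternatives covered scaling, offset, filter, probe sets, variance model, a replicate block, each array left out, and, added after the data were seen, the ACTB ratio. The number of arrays limits the precision, and detection calls were not used.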

Additional observations from a re-analysis of the deposited data

Results flagged for a closer look

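An array apart from the rest was looked for 48 times, each time for 1 member probe set in the arrays of 1 siRNA or 1 D3 state. In these looks 1 such array was found, and chance gives about 1 in 20. Each array entered by its siRNA and again by its D3 state, so the looks are not independent. PML 211014_s_at read 67.2 in the p53i 20 h array, while the nearest p53i array had 120 and the highest 133 (n = 5). It is the PML probe set with the highest mean, which was not called in any comparison, and the calls on other PML probe sets do not use it.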

How the results depend on the processing

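ETS2 was called for D3 in all 23 alternatives, with log2 differences of 0.87 to 1.20. NFYB, not called for D3 in the main fit, was called lower in 1 of the 23. SP1 was 0.0021 (adjusted p = 0.997) with the mean of probe sets, which turned its sign, and member genes called for D3 went to 1 of 7 with quantile normalization, no filter, every probe set as its own row, the mean of probe sets, no trend, 8 group means and without the 2 arrays whose ACTB ratio was highest (1 to 2 when 1 array was left out). ETS2's calls at 8 h and 20 h went to 0 with median centring, no trend and group means, and at 20 h also without those 2 arrays (0 to 1 when 1 array was left out). At 50 h 2 were called with the ACTB covariate, SP1 being the added gene (0 to 1 when 1 array was left out). In p53i cells the D3 count went to 0 with the mean of probe sets, no trend, group means and without those 2 arrays (0 to 1 when 1 array was left out). For siRNA, 1 gene, NFYB, was called with the mean of probe sets, the replicate block and the ACTB covariate, and without p53i untreated replicate 2 (0.44, adjusted p = 0.0121; 0 to 1 when 1 array was left out). The 4 probe sets called for siRNA became 6 with an offset of 64 or the replicate block, 5 with quantile normalization or median centring, 2 with no offset or the upper 25%, 1 with no filter and 0 with no trend, group means, the ACTB covariate or without those 2 arrays (0 to 4 when 1 array was left out). The 2 probe sets called for D3 became 1 with group means (2 to 3 when 1 array was left out). With the replicate block, 1303 genes were called for siRNA, against 781, and NFYB by 0.35 (adjusted p = 0.0345). Replicate numbers exist only in the 2 untreated groups, whose deviations correlated at 0.22, and the labels tie no number to a shared culture or day, so whether the numbers pair the arrays is not settled. All-gene counts ranged over 51 to 1303 for siRNA and 52 to 955 for D3. The cause of these changes was not tested, and dim signals limit TP73, ETS1 and PML.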
